A study of Mus musculus with 12 samples.

Results

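The mitochondrial ribosomal protein genes were followed in macrophages taken from the abdominal cavity of C57/BL6 mice and cultured in DMEM with 10% FBS. They were chosen by symbol alone, as every gene on the array whose symbol begins with Mrpl or Mrps followed by a digit. That gave 78 members of 22911 named genes, of which 51 belong to the large ribosomal subunit and 26 to the small one. Mrps36 was kept apart, because its product is now assigned to the oxoglutarate dehydrogenase complex. Mrps30 and Mrps18a count as large-subunit proteins despite their symbols. All 78 passed the filter that left 13283 named genes for testing, and 77 were well above background on all 12 arrays. The exception, Mrpl35, was well above background on 7 of 12.

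The cells were wild type (WT) or GPR15KO (KO), which lack the G protein-coupled receptor GPR15, and received PBS or LPS, a bacterial lipopolysaccharide, the latter at 100 ng/ml during 4 h. The 4 groups (WT PBS, WT LPS, KO PBS, KO LPS) each held 3 one-colour Agilent arrays. The labels number the replicates but do not say that they came from separate mice, so p-values may measure technical spread only. How the knockout was made, and the age and sex of the mice, are not given in the sources used here.

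The arrays lay on 2 slides, each with a scan of its own. Slide 1 carried the 6 WT arrays together with 2 of the 3 KO PBS arrays, and slide 2 the remaining KO PBS array, replicate 3, beside the 3 KO LPS arrays. The LPS effect in WT was therefore compared within slide 1, and LPS in KO mostly across slides. KO and WT after LPS never shared a slide. The array's 75th percentile, which scaled each array, ranged from 469.6 to 574.1, and 48.8% to 57.1% of its spots were well above background. Gpr15 itself exceeded background on 0 of 12 arrays, so its probe gave no check of the genotype. The X-linked Xist lay between -0.87 and -0.20 on the WT arrays and between -6.88 and -6.19 on the KO arrays, in the log2 units explained below. The Y-linked Ddx3y lay between -6.48 and -5.84 in WT and between -0.83 and -0.12 in KO. Genotype and sex cannot be told apart in any comparison of KO with WT.

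The mitochondrial ribosome makes the small set of respiratory chain proteins that the mitochondrial genome still encodes. Its ribosomal RNAs come from that genome, but all its proteins are encoded in the nucleus, translated in the cytosol and imported. Part of these proteins descend from bacterial ribosomal proteins, and the others were added in the mitochondrial lineage. In macrophages LPS is known to shift energy metabolism from respiration towards glycolysis. The promoters of these genes, like those of many nuclear genes for mitochondrial proteins, are known for sites of NRF1, of ETS factors such as GABP, and of YY1.

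The stretches below are examples, picked after the values were seen, and are not every window the same ground would allow. They lie before 6 of the members that were among the 5 with the largest rise or fall in either genotype and have an entry in the RefSeq promoter table of assembly GRCm38.p6. Mrpl16, Mrps30 and Mrps22 rose and Mrpl34, Mrps36 and Mrps15 fell. Each is the 250 bases before the start of transcription, 5′ to 3′ on the gene's strand. Capitals mark each match, on either strand, to 1 of 6 motifs: NRF1 (by its palindromic consensus), ETS (CCGGAAG), YY1 (AAGATGGCG), E-box (CACGTG), GC box (GGGCGG) and the box written CCAAT. The positions are chr19:11770165-11770414 for Mrpl16, chr8:71464676-71464925 for Mrpl34 and chr4:126046678-126046927 for Mrps15, on the plus strand. They are chr13:118387253-118387502 for Mrps30, chr9:98601680-98601929 for Mrps22 and chr13:100744660-100744909 for Mrps36, on the minus strand.
Mrpl16: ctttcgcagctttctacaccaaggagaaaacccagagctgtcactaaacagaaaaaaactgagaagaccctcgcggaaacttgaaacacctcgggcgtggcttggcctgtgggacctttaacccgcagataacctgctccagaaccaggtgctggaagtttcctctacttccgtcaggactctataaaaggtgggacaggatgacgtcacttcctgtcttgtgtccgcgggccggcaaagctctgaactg
Mrps30: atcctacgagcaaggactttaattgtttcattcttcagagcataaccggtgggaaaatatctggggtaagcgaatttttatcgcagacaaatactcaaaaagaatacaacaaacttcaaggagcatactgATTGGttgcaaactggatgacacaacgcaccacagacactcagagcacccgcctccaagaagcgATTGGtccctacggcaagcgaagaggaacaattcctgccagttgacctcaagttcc
Mrps22: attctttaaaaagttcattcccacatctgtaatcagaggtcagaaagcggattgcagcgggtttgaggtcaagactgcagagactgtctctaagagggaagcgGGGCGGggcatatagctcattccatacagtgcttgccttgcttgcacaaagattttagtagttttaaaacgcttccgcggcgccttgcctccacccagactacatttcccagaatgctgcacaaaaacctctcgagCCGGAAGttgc
Mrpl34: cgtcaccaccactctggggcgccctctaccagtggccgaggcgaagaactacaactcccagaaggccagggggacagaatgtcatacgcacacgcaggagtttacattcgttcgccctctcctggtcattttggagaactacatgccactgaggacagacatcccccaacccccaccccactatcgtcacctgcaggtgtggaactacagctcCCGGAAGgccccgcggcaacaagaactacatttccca
Mrps36: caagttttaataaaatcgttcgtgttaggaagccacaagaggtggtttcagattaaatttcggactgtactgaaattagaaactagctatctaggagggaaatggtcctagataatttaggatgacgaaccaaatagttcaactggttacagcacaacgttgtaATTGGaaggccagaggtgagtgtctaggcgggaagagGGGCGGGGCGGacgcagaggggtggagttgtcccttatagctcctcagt
Mrps15: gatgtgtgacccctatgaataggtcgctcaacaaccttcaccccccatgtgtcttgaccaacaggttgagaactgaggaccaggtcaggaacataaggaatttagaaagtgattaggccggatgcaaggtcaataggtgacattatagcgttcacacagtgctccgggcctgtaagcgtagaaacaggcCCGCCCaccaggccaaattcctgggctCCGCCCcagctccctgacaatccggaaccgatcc
Among these 6, the ETS letters stand before a member that rose, Mrps22, and before one that fell, Mrpl34. The GC box letters likewise stand before Mrps22, which rose, and before Mrps36 and Mrps15, which fell. In Mrpl16 none of the 6 motifs occurs in this window.

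Several members start back to back with another gene on the opposite strand, and 3 such intervals are shown because the neighbours' responses are set side by side further on. The first separates Mrpl30 from Mitd1 by 65 bases (chr1:37890412-37890476), the second Mrpl46 from Mrps11 by 41 bases (chr7:78783090-78783130), and the third Mrpl18 from Tcp1 by 237 bases (chr17:12916092-12916328). Each is printed on the strand of the first gene, which is plus for Mrpl30 and minus for Mrpl46 and Mrpl18, with the same motifs in capitals.
Mrpl30 to Mitd1: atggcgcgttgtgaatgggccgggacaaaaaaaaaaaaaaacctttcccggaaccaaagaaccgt
Mrpl46 to Mrps11: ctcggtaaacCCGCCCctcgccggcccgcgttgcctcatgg
Mrpl18 to Tcp1: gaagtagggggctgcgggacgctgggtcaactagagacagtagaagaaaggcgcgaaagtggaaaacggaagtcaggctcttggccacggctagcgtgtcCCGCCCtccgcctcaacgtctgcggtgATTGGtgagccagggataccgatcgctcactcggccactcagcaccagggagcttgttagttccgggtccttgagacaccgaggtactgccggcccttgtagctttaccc

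Across the family, 69 of 78 members matched the promoter table, with 75 windows of 300 bases (250 before to 50 after the start). The ETS letters occurred in 34.7% of the members' windows, against 8.86% of all 32851 windows in the table and 16.3% of those of the genes tested here. For NRF1 the shares were 17.3%, 4.6% and 9.18%, and for YY1 10.7%, 1.4% and 2.8%. The E-box (9.33%, 7.15% and 9.71%), the CCAAT box (40%, 37.4% and 37.7%) and the GC box (52%, 35.7% and 58%) were at shares closer to those of the tested genes. Among the members' windows, ETS letters stood in 7 of 30 for members that rose with LPS in both genotypes and in 6 of 13 for those that fell in both. NRF1 letters stood in 7 of 30 and 1 of 13. A match is a string of letters, and binding was not measured.

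Levels are given as the log2 of the processed signal minus the log2 of the array's 75th percentile, so that 0 is the 75th percentile. Differences are log2 differences between group means ± the standard error (SE) of a limma fit over all 12 arrays, with n = 3 arrays a group. A gene was called when its p, adjusted by Benjamini-Hochberg over 13283 genes, was below 0.05.

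With LPS, members were called in both directions, at about the share of all genes tested. In WT, 51 of 78 members were called (65.4%, against 64.7% of all genes). Of these, 37 were higher with LPS (47.4%, against 33.7% of all genes) and 14 were lower (17.9%, against 31.0%). Differences ran from -0.63 to 0.99, with a median of 0.09 over the members and 0.03 over all genes. In KO, 50 members were called (64.1%, against 67.0% of all genes), 34 higher (against 35.1%) and 16 lower (against 32%). The KO differences ran from -0.60 to 1.14, with a median of 0.01 against 0.04 over all genes. The 2 treatments did not overlap over their 3 arrays each for 54 members in WT (69.4% of all genes) and 53 in KO (72.1% of all genes). Large responses were rare: 0 members differed 2-fold or more with LPS in WT and 1, Mrpl19, did so in KO, against 15.8% and 14.6% of all genes.

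The balance of rises and falls depends on how the arrays were scaled. With quantile normalization 62 members were called in WT, 33 higher and 29 lower, and the median was -0.03. Of all genes 64.1% were then called, 28.4% higher and 35.7% lower. In KO quantile normalization called 61 members, 29 higher and 32 lower, with a median of -0.08, against 67.3% of all genes (31.1% and 36.3%). It kept the direction of every member called under both scalings, and dropped 5 calls and added 16 in each genotype. Scaling to the array median called 45 members in WT, 37 higher and 8 lower, against 62.8% of all genes (34.4% and 28.4%). In KO it called 47, 32 higher and 15 lower, against 64.6% of all genes (33.7% and 30.9%). The sign of every LPS difference called here was the same under all 3 scalings except for Mrpl2 in WT, which was at -0.01 with quantile normalization.

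Most members called in one genotype were called in the other too. Of the 51 called in WT and the 50 called in KO, 46 were called in both, 34 of them higher in both (26.8% of all genes are) and 12 lower in both (26.4%). None went opposite ways (0.61% of all genes). Across the 78 members the LPS differences in WT and KO, which share no arrays, correlated at Pearson's r = 0.92 and Spearman's rho = 0.91, against r = 0.88 over all genes, which are not independent replicates.

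**Figure D1:**
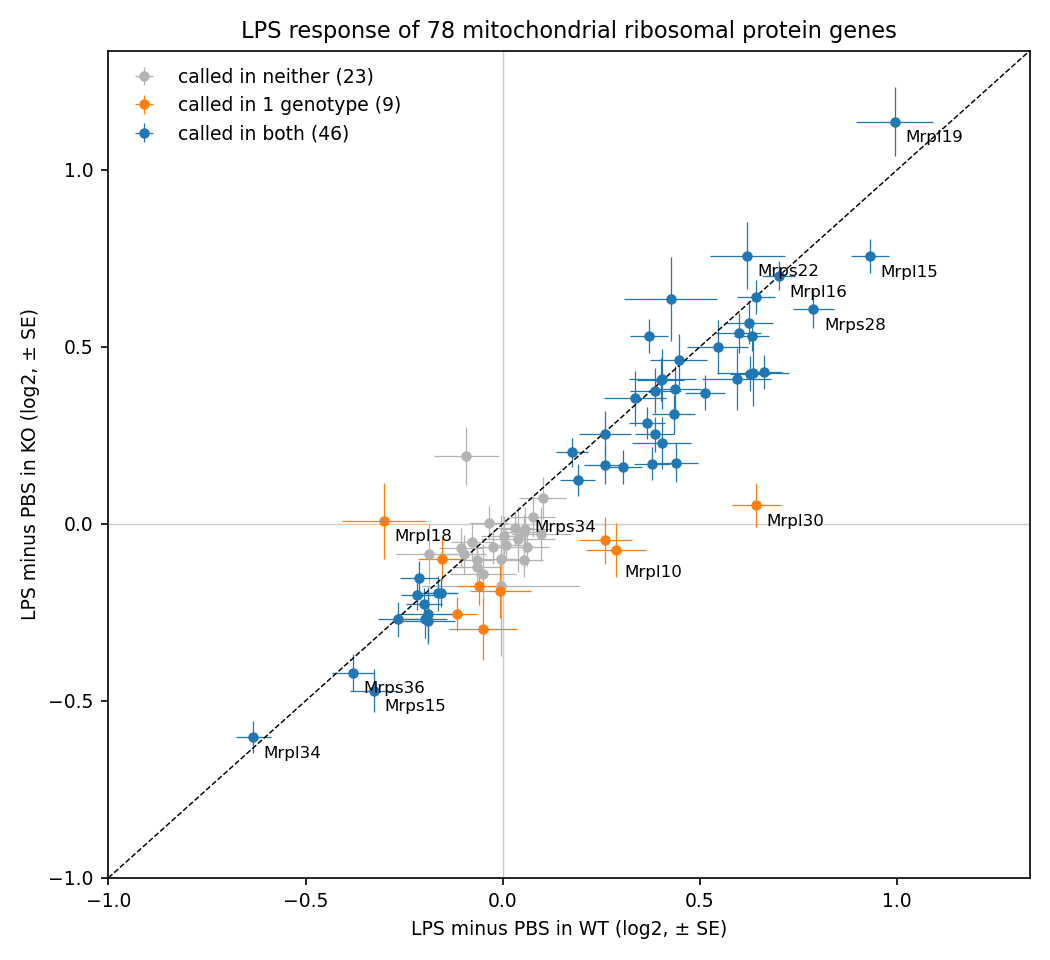
Each point is 1 of 78 members, with its LPS minus PBS log2 difference in WT on the x axis and in KO on the y axis, and bars of ± 1 SE. Most points lie near the dashed line of equal response. Mrpl30 lies far to its right, at 0.64 in WT and 0.05 in KO.

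The 2 members that rose most in WT, Mrpl19 and Mrpl15, are large-subunit proteins with bacterial counterparts. Mrpl19, the counterpart of bacterial L19, was at 0.16, 0.09 and -0.13 on the WT PBS arrays and at 1.00, 1.12 and 0.98 after LPS. In KO macrophages its levels were -0.22, -0.27 and 0.08 with PBS, against 0.96, 0.98 and 1.07 with LPS. The LPS arrays lay above the PBS arrays in both genotypes without overlap. Mrpl19 rose by 0.99 ± 0.10 in WT (1.99-fold, adjusted p = 2.6e-06) and by 1.14 ± 0.10 in KO (2.20-fold, adjusted p = 1e-06). Mrpl15, the counterpart of bacterial L15, was at 2.12, 2.13 and 1.99 in WT PBS and at 3.00, 3.05 and 2.97 after LPS. The KO arrays stood at 2.16, 2.20 and 2.16 in PBS and at 2.91, 2.95 and 2.92 after LPS. The replicates of each group of Mrpl15 were tightly grouped, and it rose by 0.93 ± 0.05 in WT (adjusted p = 1.1e-08) and 0.76 ± 0.05 in KO. A dimmer second probe for Mrpl15 gave 0.98 and 0.84.

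Mrpl16, the counterpart of bacterial L16, was at 1.94, 2.00 and 1.93 in WT PBS and at 2.63, 2.66 and 2.67 after LPS. In KO it was at 2.01, 1.98 and 2.05 in PBS and at 2.71, 2.70 and 2.73 after LPS. Its rise was the same to 2 decimals in both genotypes, 0.70 ± 0.04 (adjusted p = 3.1e-08 in WT and 4.1e-08 in KO). Mrpl32, whose product must be cut by the mitochondrial m-AAA protease before the large subunit can assemble, was at 1.84, 1.82 and 1.76 in WT PBS and at 2.42, 2.50 and 2.41 after LPS. Its levels in KO were 1.92, 1.79 and 1.90 and then 2.51, 2.52 and 2.50. It rose by 0.64 ± 0.05 in each genotype, again with no overlap between PBS and LPS arrays. Mrps30, which sits in the large subunit, was at 1.53, 1.63 and 1.52 in WT PBS and at 2.21, 2.28 and 2.17 after LPS. The KO arrays stood at 1.49, 1.47 and 1.45 and then at 1.86, 1.94 and 1.90. The WT LPS arrays were the highest of the 4 groups, and Mrps30 rose by 0.66 ± 0.05 in WT and 0.43 ± 0.05 in KO.

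In the small subunit Mrps28 rose most in WT and Mrps22 in KO. Mrps28 was at 2.21, 2.20 and 2.13 in WT PBS and at 2.97, 3.05 and 2.89 after LPS. In KO it was at 2.25, 2.32 and 2.20 and then at 2.84, 2.89 and 2.86. It rose by 0.79 ± 0.05 in WT (adjusted p = 8.8e-08) and 0.61 ± 0.05 in KO (adjusted p = 1e-06). Mrps22, in which mutations are known to cause a human respiratory chain disorder, was at 0.78, 0.89 and 0.59 in WT PBS and at 1.43, 1.54 and 1.16 after LPS. Its levels in KO were 0.73, 0.68 and 0.78 and then 1.48, 1.45 and 1.53. WT replicate 3 was the lowest of its group in both treatments. The rise of Mrps22 was 0.62 ± 0.10 in WT and 0.76 ± 0.10 in KO.

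Fewer members fell than rose with the 75th percentile scaling, and the largest falls were smaller than the largest rises. Mrpl34, a short large-subunit protein with a bacterial counterpart, was at 1.73, 1.66 and 1.75 in WT PBS and at 1.11, 1.09 and 1.04 after LPS. The KO arrays stood at 1.68, 1.67 and 1.69 and then at 1.11, 1.09 and 1.04. The KO and WT arrays overlapped within each treatment, and PBS and LPS arrays did not overlap. Mrpl34 was lower after LPS by 1.55-fold in WT (log2 difference -0.63 ± 0.05, adjusted p = 1.6e-07) and 1.52-fold in KO (-0.60 ± 0.05). Mrps36, the dehydrogenase-associated protein, was at 2.05, 2.10 and 2.03 in WT PBS and at 1.68, 1.78 and 1.58 after LPS. In KO it was at 2.10, 2.15 and 2.09 and then at 1.70, 1.67 and 1.71. It fell in both genotypes, with differences of -0.38 ± 0.05 in WT and -0.42 ± 0.05 in KO. Mrps15, the counterpart of bacterial S15, was at 3.02, 2.94 and 2.82 in WT PBS and at 2.53, 2.67 and 2.60 after LPS. Its levels in KO were 3.02, 3.05 and 2.99 and then 2.48, 2.61 and 2.56. The PBS arrays lay above all LPS arrays, and the differences were -0.33 ± 0.06 in WT and -0.47 ± 0.06 in KO.

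Mrpl41, a mitochondria-specific protein of the large subunit, was at 2.88, 2.84 and 2.96 in WT PBS and at 2.58, 2.72 and 2.58 after LPS. The KO arrays stood at 2.96, 3.02 and 2.97 and then at 2.70, 2.71 and 2.73. Its fall was -0.27 ± 0.05 in each genotype. Mrpl49 was at 0.28, 0.28 and 0.11 in WT PBS and at 0.06, 0.08 and -0.04 after LPS, a difference of -0.19 ± 0.07. In KO Mrpl49 was at 0.17, 0.22 and 0.07 and then at -0.14, -0.16 and -0.06, a difference of -0.27 ± 0.07. The other members lower in both genotypes were Mrpl28, Mrpl33, Mrpl51, Mrpl53, Mrpl55, Mrps16 and Mrps21, with WT differences between -0.22 and -0.16. Median scaling ended the WT calls of Mrpl28, Mrpl49, Mrpl51, Mrps16 and Mrps21, quantile normalization that of Mrpl28, and normexp background correction those of Mrpl28 and Mrpl49. The slide term ended the KO calls of Mrpl28, Mrpl33 and Mrpl49.

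**Figure D2:**
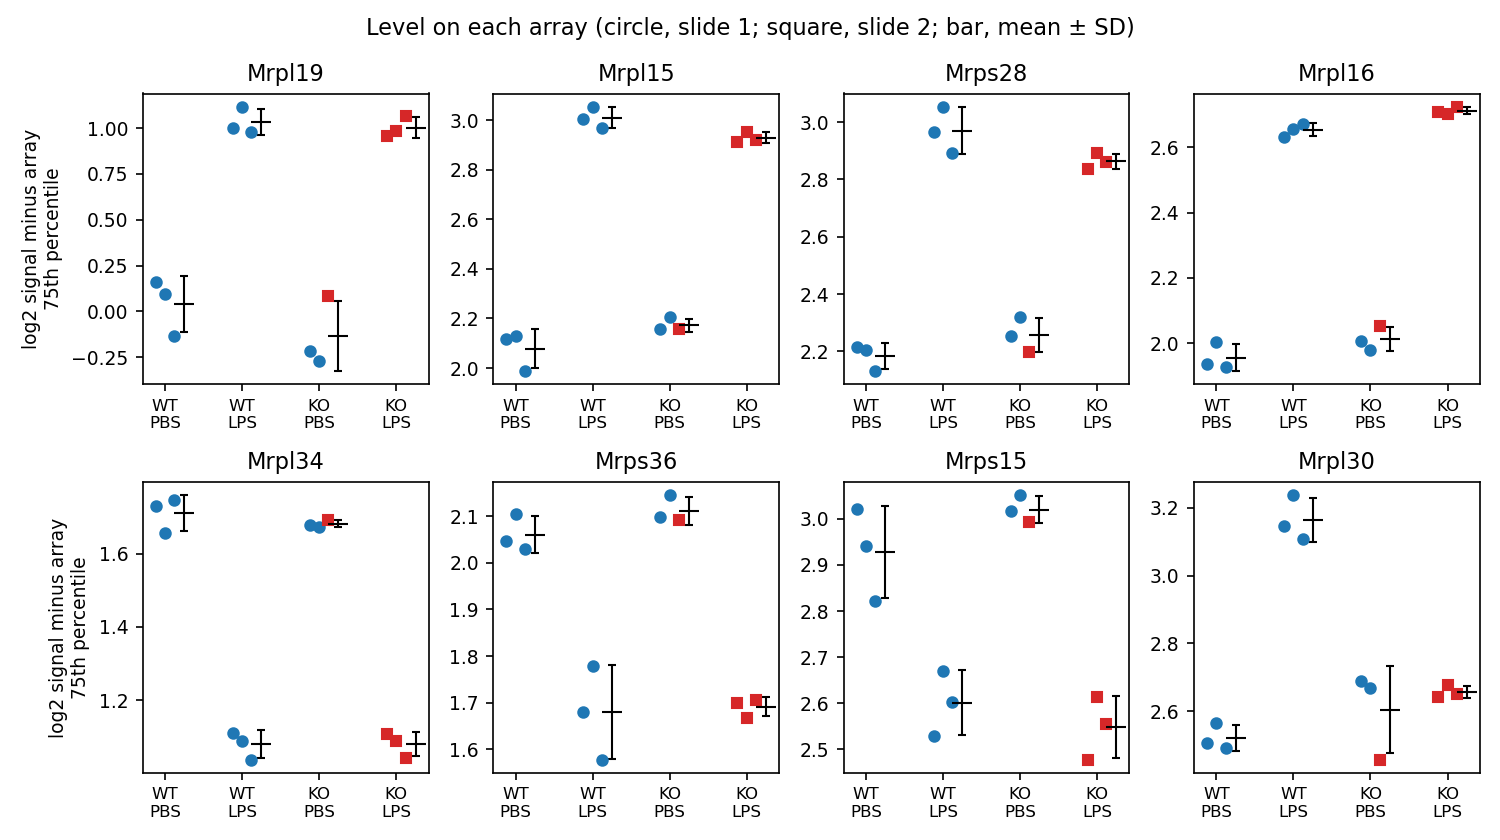
Levels of 8 members on each of the 12 arrays, in log2 units relative to the array's 75th percentile, with group mean ± SD (n = 3) beside the points and a separate y range in each panel. Circles are arrays of slide 1 and squares of slide 2. Mrpl19, Mrpl15, Mrps28 and Mrpl16 are higher and Mrpl34, Mrps36 and Mrps15 lower after LPS in both genotypes, and Mrpl30 is called higher in WT and not in KO.

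In WT alone 5 members were called (6.41%, against 10.8% of all genes), in KO alone 4 (5.13%, against 13.2%), and in neither 23 (29.5%, against 22.1%). Those called in WT alone were Mrpl10, Mrpl30 and Mrps34, which were higher, and Mrpl18 and Mrps18c, which were lower. Of these, Mrps34 lost its call with quantile normalization, Mrps18c with median scaling and Mrpl18 with normexp. A dimmer second probe for Mrpl10 gave similar differences in both genotypes, 0.17 in WT, called, and 0.15 in KO, not called. Those called in KO alone were Mrpl4, Mrpl39, Mrpl42 and Mrps35, all lower. The call of Mrpl39 was lost with the slide term, with median scaling and without KO PBS replicate 3. Calls were also gained in the other genotype. Quantile normalization added Mrpl4 and Mrpl42 in WT, and Mrps18c and Mrps34 in KO. The slide term added Mrpl4 in WT and Mrpl30 in KO, and leaving out KO PBS replicate 3 added Mrpl4 in WT and Mrpl10 in KO. Mrps35 was at -0.37, -0.46 and -0.40 in WT PBS and at -0.46, -0.35 and -0.56 after LPS. In KO it was at -0.22, -0.27 and -0.54 in PBS and at -0.66, -0.62 and -0.63 after LPS. KO PBS replicate 3, the KO PBS array of slide 2, was the lowest of its group. The difference in KO was -0.30 ± 0.09 (adjusted p = 0.0096), and Mrps35 was not called in KO once slide was a term of the fit. Of these 9 members only Mrpl30 had a called difference in response between genotypes. The 23 members called in neither include Mrps12, the decoding-centre protein, Mrpl11, which with Mrpl10 and Mrpl12 forms the stalk that receives translation factors, and Mrpl35.

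By structural class the counts in WT were 24 higher and 9 lower of 51 large-subunit members and 13 higher and 4 lower of 26 small-subunit members. In KO they were 22 and 11, and 12 and 4. Members with a bacterial counterpart had 24 rises and 8 falls of 47 in WT, with a median of 0.17, and mitochondria-specific members 13 and 6 of 31, with a median of 0.01. In KO the counts were 22 and 7, and 12 and 9. The mitochondria-specific class as counted here includes Mrps36, and also Mrpl55, whose class is uncertain. Both were lower with LPS in each genotype. No test was made between these classes. For 4 sites of the large subunit, chosen after the values were seen, the WT counts were 2 higher and 0 lower of 3 stalk proteins (Mrpl10 and Mrpl12 rose), and 3 and 0 of 6 proteins around the exit tunnel. They were 2 and 2 of 7 proteins in the central protuberance, and 1 and 2 of Mrpl32 to Mrpl36. Mrpl12, the stalk protein that is also reported to bind the mitochondrial RNA polymerase, rose by 0.59 in WT and 0.41 in KO. Mrpl45, which holds the ribosome at the inner membrane, rose by 0.37 ± 0.05 in WT and 0.53 ± 0.05 in KO.

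A pairing of WT arrays by replicate number was tried, because their residuals correlated, though only weakly for replicate 1. The labels do not state such a pairing. With replicate number as a block in the WT arrays alone, 55 members were called (70.4% of all genes). These were the same 51 plus Mrpl4, Mrpl20, Mrps25 and Mrps33. For KO, in which 1 PBS array shares a slide with the LPS arrays, 47 members were called with slide as a term, 35 higher and 12 lower, against 53.0% of all genes (27.7% and 25.3%). Comparing that single array with the 3 KO LPS arrays within slide 2 gave 52 called, 37 higher and 15 lower, against 64.0% of all genes (33.9% and 30.1%), with the lone array assumed to vary like the others. Of the 21 members with several probes, 3 in WT and 6 in KO had probes that differed in their call, and 0 had probes called in opposite directions.

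In PBS, KO and WT differed little in these genes. Of 78 members 5 were called (6.41%, against 14.1% of all genes), 5 higher in KO (against 8.06%) and 0 lower (against 6.05%). The arrays of the 2 genotypes did not overlap for 20 members, against 30.5% of all genes. At an unadjusted p below 0.05 the limma fit gave 12 higher and 1 lower, against 2149 higher and 1850 lower of all 13283 genes. Mrpl27, the counterpart of bacterial L27, was at 3.03, 2.98 and 2.94 in WT and at 3.13, 3.22 and 3.33 in KO, a difference of 0.24 ± 0.05 (adjusted p = 0.013). Its second probe by brightness gave 0.09 and was not called. The arrays did not overlap, with KO PBS replicate 3 the highest. Mrpl57 was at 3.84, 3.84 and 3.85 in WT and at 4.12, 4.07 and 4.01 in KO, a difference of 0.22 ± 0.04 (adjusted p = 0.0052). Mrps18c, 1 of the 3 Mrps18 paralogues, was at 2.97, 3.11 and 2.97 in WT and at 3.21, 3.17 and 3.29 in KO, a difference of 0.21 ± 0.06 (adjusted p = 0.044). These 3 genes were separated by small amounts, without overlap.

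Mrpl54 was at 2.97, 2.93 and 2.96 in WT PBS and at 3.15, 3.18 and 3.03 in KO PBS, a difference of 0.17 ± 0.05 (adjusted p = 0.035). Mrpl13, the counterpart of bacterial L13, was at 2.43, 2.43 and 2.32 in WT and at 2.58, 2.58 and 2.51 in KO, a difference of 0.16 ± 0.05 (adjusted p = 0.045). The KO arrays were all above the WT arrays for both. The 5 calls were not stable. With arrays scaled to their median, limma called 0 of them, against 12.9% of all genes. Within slide 1, which leaves 2 KO arrays, 4 were called (8.18% of all genes), of which Mrpl54 and Mrpl57 were among the 5. Leaving out KO PBS replicate 3 raised the count to 10 (15.2% of all genes), and leaving out any of 9 other arrays lowered it to 2 or 3.

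After LPS the genotypes differed in more members, but this comparison lies wholly between slides. Of 78 members 21 were called (26.9%, against 39.5% of all genes), 8 higher in KO (against 20.0%) and 13 lower (against 19.5%). The arrays did not overlap for 41 members, against 58.4% of all genes. Among the higher ones Mrps14, the counterpart of bacterial S14, was at 1.26, 1.41 and 1.30 in WT LPS and at 1.63, 1.77 and 1.76 in KO LPS. The KO arrays lay above the WT arrays, with a difference of 0.40 ± 0.08 (adjusted p = 0.0034). Mrpl18, a central protuberance protein, was at 1.19, 1.32 and 0.92 in WT LPS and at 1.38, 1.45 and 1.50 in KO LPS, a difference of 0.30 ± 0.11 (adjusted p = 0.044). The WT arrays were widely spread and the KO arrays were not. Mrpl27 was at 2.89, 2.96 and 2.86 in WT LPS and at 3.18, 3.17 and 3.18 in KO LPS, a difference of 0.27 ± 0.05, while its other probes gave -0.06, not called, and 0.04. Mrps18c was at 2.88, 2.92 and 2.78 against 3.09, 3.06 and 3.21, a difference of 0.26 ± 0.06. Mrpl33 was at 4.76, 4.82 and 4.81 against 4.94, 4.96 and 5.07, a difference of 0.20 ± 0.05. For these 3 genes, too, all KO LPS arrays exceeded all WT LPS arrays.

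Among those lower in KO after LPS, Mrpl10 was at 1.14, 1.22 and 1.24 in WT LPS and at 0.80, 0.83 and 0.79 in KO LPS, a difference of -0.39 ± 0.08 (adjusted p = 0.0027). Mrps34, in which mutations are known to cause a human mitochondrial disease, was at 3.10, 3.22 and 3.10 against 2.77, 2.72 and 2.78, a difference of -0.38 ± 0.07 (adjusted p = 0.0015). The groups did not overlap in either gene. Mrps7, a protein of the head of the small subunit, was at 3.46, 3.54 and 3.46 against 3.20, 3.15 and 3.20, a difference of -0.30 ± 0.07. Mrps30, whose values are given above, differed by -0.32 ± 0.05 (adjusted p = 0.00064), and Mrpl30 by -0.51 ± 0.06 (adjusted p = 0.00018). A second, dimmer probe for Mrpl10 gave -0.10 and was not called. Of the 21 members with several probes, 6 had probes that differed in their call between genotypes after LPS. These were Mrpl10, Mrpl22, Mrpl27, Mrpl48, Mrps5 and Mrps18b. For Mrpl48 the brightest probe gave 0.17 and the other -0.01.

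With slide as a term, which rests on the contrast of KO PBS replicate 3 with replicates 1 and 2, 2 of the 21 stayed called (2.56% of members, against 5.84% of all genes). These were Mrpl30 (-0.29 ± 0.07, adjusted p = 0.049) and Mrpl45 (0.31 ± 0.07, adjusted p = 0.028). The difference shrank for Mrps14 to 0.09 ± 0.10 and for Mrpl10 to -0.09 ± 0.08. It was -0.05 for Mrpl18 and 0.00 for Mrps7, each with its sign turned. It was 0.14 ± 0.07 for Mrpl12 and 0.11 ± 0.08 for Mrpl46, against -0.25 and -0.28 without the term. For Mrps30 (-0.29 ± 0.08) and Mrpl33 (0.25 ± 0.08) it was of similar size to before but was not called. Scaling to the array median, which moved the median of all genes to -0.11, gave 28 called, 2 higher and 26 lower, against 42.5% of all genes (13.4% and 29.1%). The members' median was then -0.13, close to that of all genes.

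**Figure D3:**
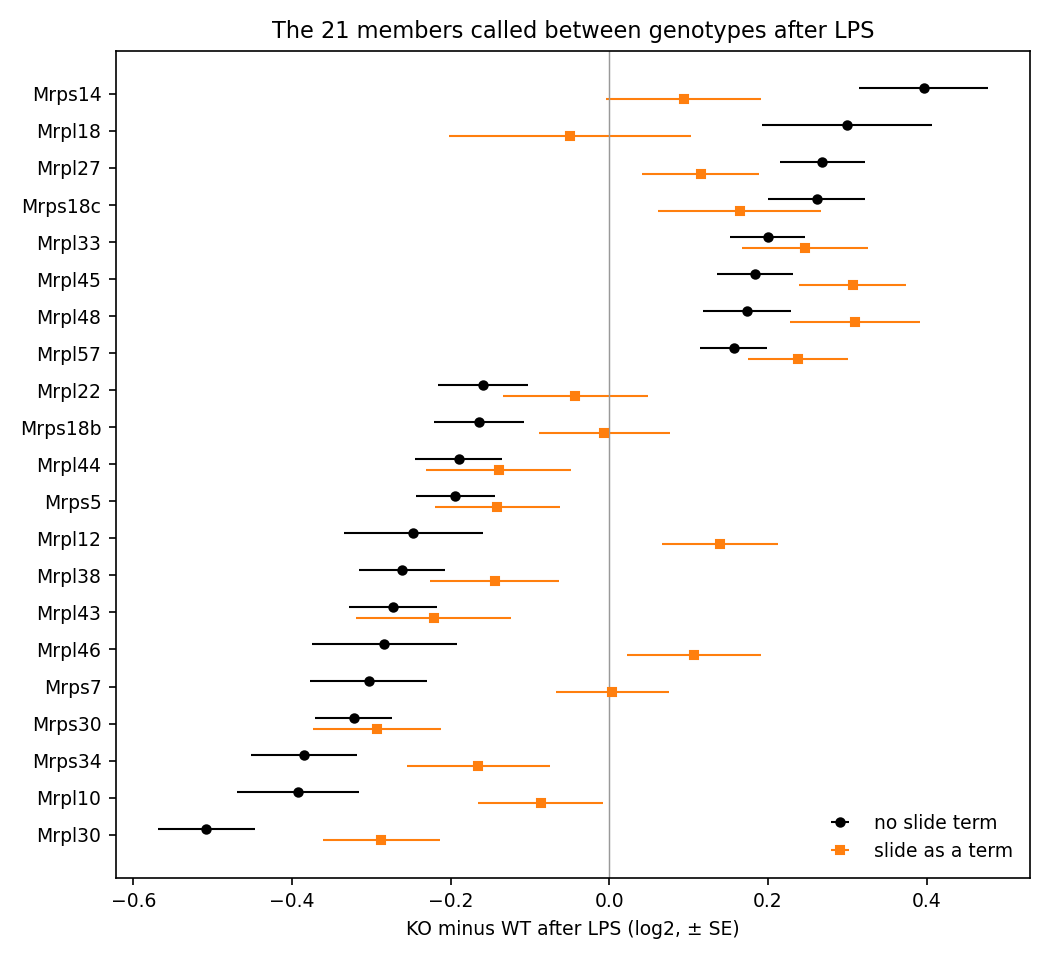
KO minus WT after LPS, as log2 differences ± SE, for the 21 members called without a slide term (black circles), beside the same difference with slide as a term (orange squares). Mrpl30 and Mrpl45 are called under both fits. Mrpl18, Mrps7, Mrpl12 and Mrpl46 have opposite signs under them.

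The response itself differed between genotypes in Mrpl30. This gene, whose product is the counterpart of bacterial L30, was at 2.51, 2.56 and 2.49 in WT PBS and at 3.15, 3.24 and 3.11 in WT LPS. In KO macrophages its levels were 2.69, 2.67 and 2.46 with PBS, against 2.64, 2.68 and 2.65 with LPS. The WT LPS arrays stood above the other 9, and in KO the LPS arrays lay within the range of the PBS arrays. Mrpl30 rose by 0.64 ± 0.06 in WT (1.56-fold, adjusted p = 2.1e-06) and differed by 0.05 ± 0.06 in KO (adjusted p = 0.47). The interaction, the LPS difference in KO minus that in WT, was -0.59 ± 0.09 (adjusted p = 0.0017). It was called in all 21 other settings tried, between -0.66 and -0.44, with adjusted p from 8.2e-05 to 0.0084. Mrpl30 has 1 probe on the array, so the other probe filters left its levels as they were, and the settings are not independent checks. Within slide 2 the KO response of Mrpl30 was 0.20 ± 0.05 (adjusted p = 0.0069), where KO PBS replicate 3, the lowest of its group, is the only PBS array.

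Mrpl30 was the only member of 78 with a called interaction (1.28%, against 4.31% of all genes). It was lower (3.39% of all genes are), and 0 were higher (0.926%). At an unadjusted p below 0.05 in the limma fit, 2 were higher and 10 lower, against 1246 higher and 1500 lower of all 13283 genes. The next 4 by p were not called. These were Mrpl38, of the central protuberance, at -0.27 (adjusted p = 0.081), Mrps30 at -0.23 (0.085), Mrpl10 at -0.36 (0.091) and Mrps34 at -0.31 (0.1). Dimmer second probes gave interactions of -0.14 for Mrpl38 and -0.02 for Mrpl10. Mrpl38 was at 0.52, 0.59 and 0.53 in WT PBS and at 0.96, 0.97 and 1.02 after LPS. The KO arrays stood at 0.54, 0.64 and 0.47 and then at 0.67, 0.77 and 0.73, so the WT LPS arrays again stood highest. In PBS Mrpl10 was at 0.93, 0.87 and 0.93 in WT and at 1.03, 0.93 and 0.68 in KO, and Mrps34 at 2.88, 2.96 and 2.80 and at 2.89, 2.86 and 2.65. KO PBS replicate 3 was the lowest KO PBS array in all 3 of these genes. Without it 15 members had a called interaction, 2 higher (Mrpl18 and Mrps14) and 13 lower, against 21.1% of all genes.

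Mitd1, which encodes a protein with a role in the last step of cell division, starts 65 bases from Mrpl30 on the opposite strand, and its response also differed between genotypes. Mitd1 was at 0.60, 0.57 and 0.42 in WT PBS and at 1.98, 2.16 and 1.69 after LPS. In KO it was at 0.73, 0.59 and 0.98 and then at 1.26, 1.16 and 1.32. LPS arrays exceeded PBS arrays in both genotypes, by 1.41 ± 0.12 in WT and 0.48 ± 0.12 in KO. With slide as a term the KO difference was 0.27 ± 0.15 and was not called (adjusted p = 0.16). The interaction was -0.94 ± 0.17 (adjusted p = 0.0069), and -1.15 ± 0.18 with slide as a term (adjusted p = 0.0062). For Mrpl30 with that term it was -0.44 ± 0.07 (adjusted p = 0.0063).

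The calls of members were set beside those of the neighbours that share their start region. Counting starts within 300 bases on opposite strands, 21 members had such a neighbour, and for 20 the neighbour was tested. In WT both genes were called the same way for 6 members, opposite ways for 2, only 1 of the 2 was called for 9, and neither for 3. In KO the counts were 4, 2, 11 and 3. The pair of Mrpl46 and Mrps11 counts once for each, and no rate for unrelated pairs was computed. Mrpl46, of the central protuberance, and Mrps11, of the small subunit, face each other across 41 bases. Mrpl46 was at 0.74, 0.83 and 0.79 in WT PBS and at 1.42, 1.40 and 1.45 after LPS, and rose by 0.63 ± 0.09. Mrps11 was at -0.66, -0.42 and -0.56 and then at -0.61, -0.52 and -0.40, a difference of 0.04 ± 0.09 that was not called.

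Opposite calls were found for Mrpl18 and Mrpl2 in WT. Mrpl18 was at 1.47, 1.47 and 1.40 in WT PBS, above its 3 WT LPS arrays, and fell, with a difference of -0.30 ± 0.11 (adjusted p = 0.026). Its neighbour Tcp1, a subunit of the cytosolic chaperonin, was at 2.81, 2.82 and 2.88 in WT PBS and at 3.60, 3.60 and 3.72 after LPS, and rose by 0.80 ± 0.06. In KO Mrpl18 was at 1.29, 1.35 and 1.67 in PBS, overlapping its LPS arrays, with a difference of 0.01 ± 0.11. Mrpl2, the counterpart of bacterial L2, rose by 0.17 in WT (-0.01 with quantile normalization) and 0.20 in KO, while Klc4, a kinesin light chain, fell by 1.16 and 1.20 on the log2 scale. In KO the second opposite pair was Mrps27, which rose by 0.57, and Ptcd2, at -0.27. Mrpl32 with the proteasome gene Psma2, and Mrpl37 with Cyb5rl, rose together in both genotypes.

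**Figure D4:**
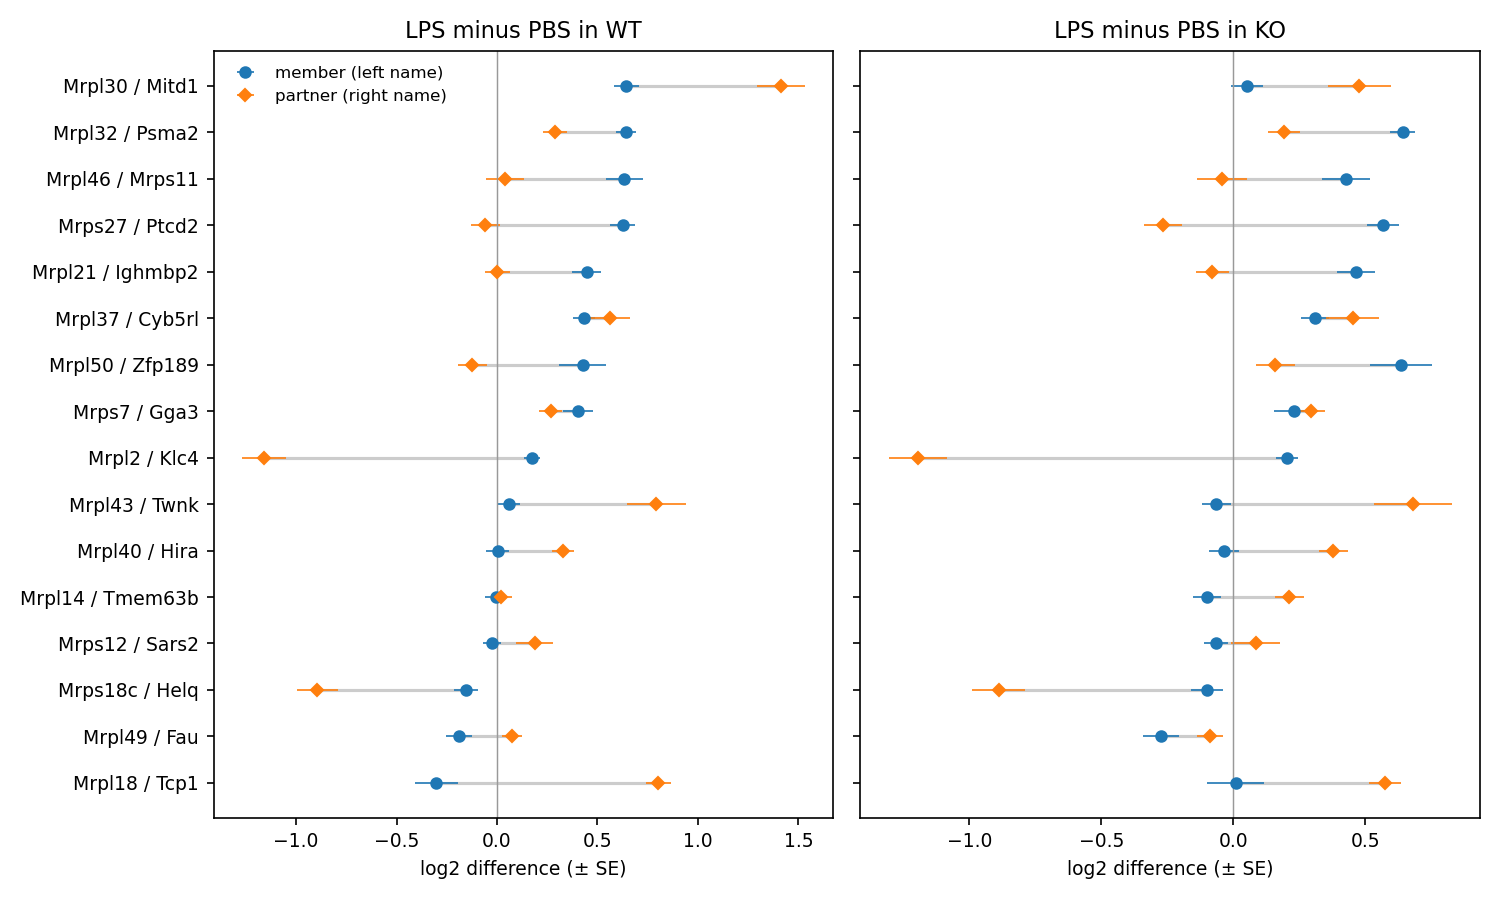
LPS minus PBS log2 differences ± SE in WT (left) and KO (right) for members (circles) and the gene that starts within 300 bases on the opposite strand (diamonds), for neighbours well above background on all 12 arrays. Mrpl30 with Mitd1 and Mrpl32 with Psma2 lie on the same side of 0, and Mrpl2 with Klc4 on opposite sides.

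The other genes of mitochondrial protein synthesis were read from lists set by function. Of the 5 mitoribosome proteins with other names, 4 were higher with LPS in each genotype (with quantile normalization 2 higher and 1 lower in WT, and 3 and 1 in KO). Ptcd3 rose by 0.70 in WT and 0.65 in KO, and Gadd45gip1 by 0.72 and 0.52. Of 29 assembly factors and ribosomal RNA enzymes, 18 were higher and 4 lower in WT and 16 and 5 in KO (with quantile normalization 16 and 6, and 14 and 5). C1qbp, a matrix protein needed for mitochondrial translation, rose by 1.19 in WT, and the GTPase Noa1 by 0.98 and 0.92. Of 15 translation factors, 9 were higher and 1 lower in WT, and 6 and 1 in KO. Tufm, the elongation factor Tu, rose by 0.47 and 0.31, and the release factor Mtrf1 was lower, at -0.84 and -0.92. The 20 mitochondrial aminoacyl-tRNA synthetases were divided, with 4 higher and 5 lower in each genotype (7 and 5, and 4 and 6, with quantile normalization). Ears2 rose by 0.60 and 0.37, and Cars2 was lower, at -1.28 and -1.07.

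Upstream, of 19 genes of mitochondrial transcription and RNA processing, 11 were higher and 4 lower in WT and 12 and 3 in KO. The RNA helicase Supv3l1 rose by 1.11 in WT and 1.20 in KO. Its partner in RNA decay, the nuclease Pnpt1, rose by 1.06 and 0.29, with an interaction of -0.77 (adjusted p = 0.0011). With slide as a term its KO rise was 0.23 and was not called (adjusted p = 0.096). Of 13 biogenesis regulators, 9 were higher and 3 lower in WT and 8 and 2 in KO. Myc rose by 2.27 and 2.50, and Gabpb1, a subunit of the ETS factor GABP, by 1.30 and 1.11. Max, the partner of Myc, rose by 0.59 in WT and was at -0.04 in KO, with an interaction of -0.63 (adjusted p = 0.0043). Its KO value was called higher with slide as a term (0.16, adjusted p = 0.047) and lower without KO PBS replicate 3 (-0.14, adjusted p = 0.022). Of 32 protein import genes, 18 were higher and 4 lower in WT and 17 and 4 in KO (15 and 10 in each with quantile normalization). Timm23, the import channel of the inner membrane, rose by 0.78 and 0.81.

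The nuclear-encoded subunits of the respiratory chain, whose core these ribosomes make, were counted by complex, and no test was made between lists. Of 37 complex I subunits, 8 were higher and 16 lower in WT and 5 and 18 in KO, and quantile normalization kept more lower than higher (3 and 24, 3 and 25). Ndufv3 was lower, at -0.75 and -0.72, and Ndufa12 was higher, at 0.60 and 0.54. Complex IV had 1 higher and 5 lower of 14 in WT and 1 and 8 in KO, and complex V 3 and 7 of 17 in WT and 3 and 9 in KO. The share of complex IV called lower in WT was close to that of all genes. Median scaling gave complex V 3 higher and 3 lower in WT. With slide as a term the KO counts were 4 higher and 14 lower for complex I, 0 and 2 for complex IV, and 4 and 4 for complex V. Complex III had 5 higher and 2 lower of 9 in WT and 4 and 2 in KO, which quantile normalization turned to 2 and 4, and 0 and 4. Complex II had 1 of 4 lower in each genotype, the subunit gene Sdhc, though in WT median scaling called 0.

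The cytosolic ribosomal proteins had no direction that held across scalings. Of 78 tested, 46 were higher and 3 lower with LPS in WT and 11 and 7 in KO. With quantile normalization 0 were higher and 29 lower in WT, and 1 and 44 in KO. In WT Rpl3 rose by 0.29 and Rpl15 by 0.34 with the 75th percentile scaling.

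**Figure D5:**
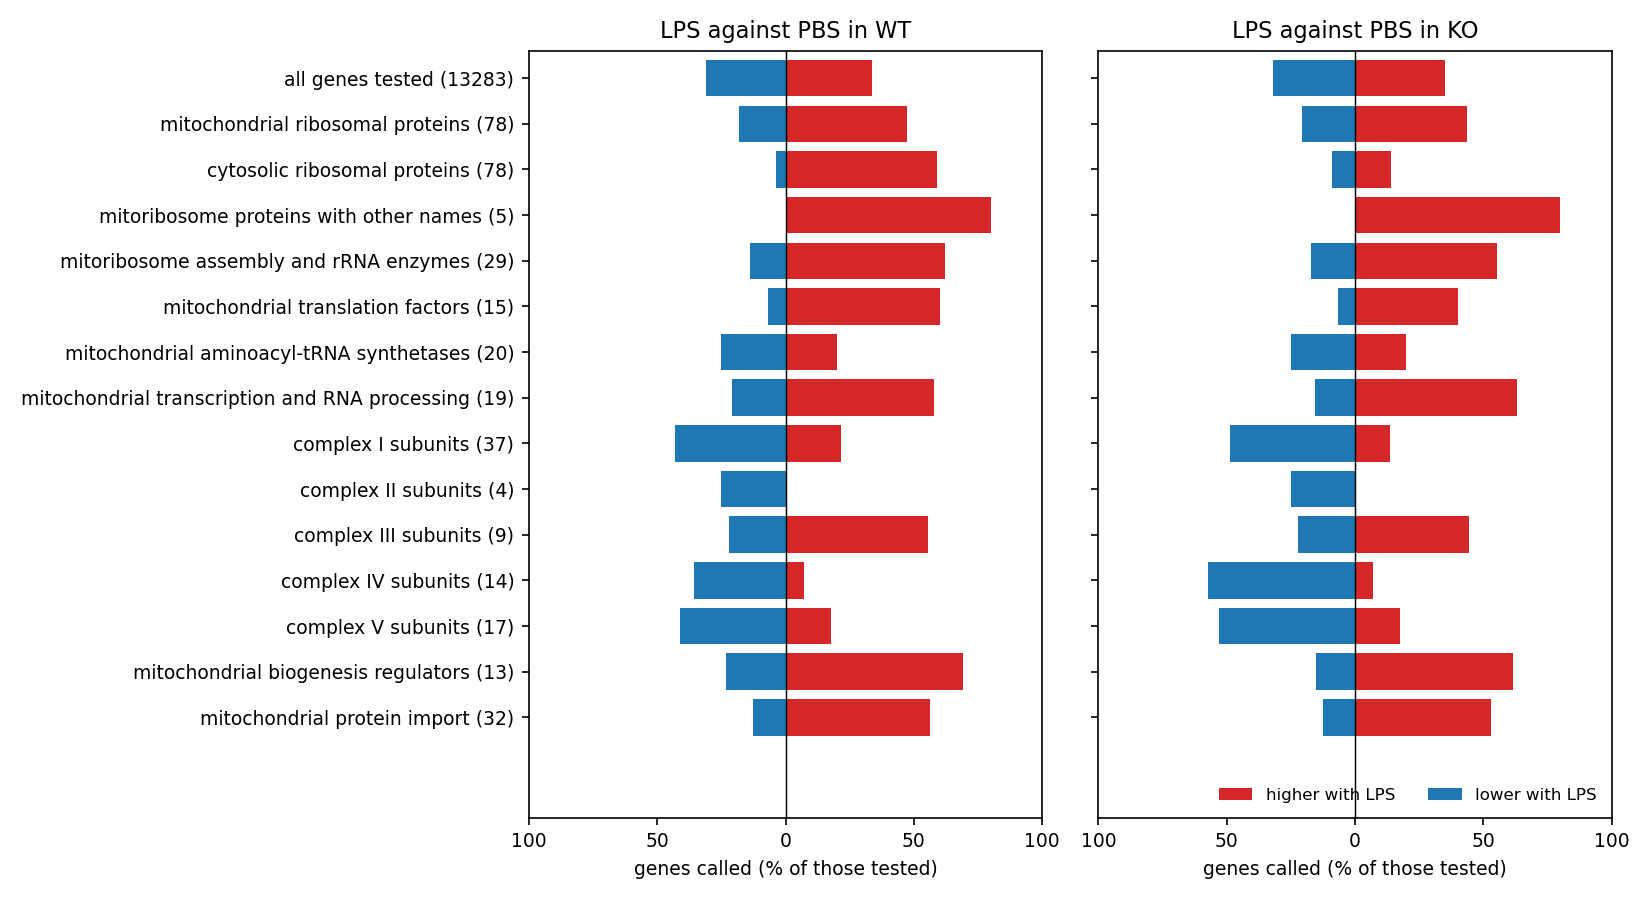
Share of the tested genes of each list called higher (red, to the right) and lower (blue, to the left) with LPS, in percent, in WT and KO, with the number tested in parentheses. Assembly factors, transcription and import genes have longer red than blue bars in both genotypes, and complexes I, IV and V longer blue than red bars.

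The labelled cell type was checked against its markers. All 10 macrophage markers were tested, and their summed level, in units of the array's 75th percentile, lay between 420.5 and 434.2 in WT PBS, 299.8 and 333.3 in WT LPS, 469.8 and 523.3 in KO PBS and 349.9 and 366.1 in KO LPS. Of these 10 macrophage markers, 2 were called higher and 7 lower with LPS in WT, and 1 and 7 in KO. All 8 B-cell markers were also measured. Their sum ranged from 130.2 to 170.8 in WT PBS and 67.2 to 81.1 after LPS, and from 114.0 to 119.6 in KO PBS and 54.8 to 55.7 after LPS. In WT 5 of 8 B-cell markers were called lower with LPS and in KO 6 of 8. The sum of 7 mast-cell markers was 67.8 to 90.3 in WT PBS and 86.1 to 106.5 after LPS, and 59.0 to 67.6 and 75.03 to 76.96 in KO. Singly, 2 mast-cell markers were called higher and 2 lower with LPS in WT, and 2 and 1 in KO. The sum of 10 proliferation markers was 31.1 to 31.9 in WT PBS and 37.1 to 38.9 after LPS, and 29.6 to 33.8 and 36.3 to 37.5 in KO. These 10 were divided, with 5 called higher and 5 lower with LPS in WT, and 4 and 5 in KO, so the sum follows the brightest. The sum of 5 neutrophil markers was 1.69 to 2.48 in WT PBS and 3.09 to 9.25 after LPS, and 4.40 to 6.09 and 6.10 to 8.08 in KO, with the defining marker Ly6g below the filter. The sum of 6 T-cell markers lay between 8.65 and 11.92 over all arrays. Of these 6, 0 were called higher and 4 lower with LPS in WT, and 2 and 1 in KO, while 0 had a called interaction. Of 6 mesothelial markers 5 were below the filter. The part of these shifts in the members' values was not tested, and fewer cells of a type cannot be told apart from less RNA per cell.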

How the data were processed

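Total RNA, extracted with TRIzol per the labels' protocols, was amplified from low input with Cy3 and hybridised to 12 one-colour Agilent arrays. Spot intensity, per the file headers, is what each deposited file gives, as scanned and background-corrected by Feature Extraction. The submitters' processing notes name version 11.5.1.1 of that software. No transformation by the authors is recorded in them. Groups and replicate numbers came from the sample titles.

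From each spot's log2 processed signal, the log2 of the 75th percentile over all spots but controls on that array was subtracted. Of 56605 distinct probes, 58.3% got a gene name from RefSeq's table (assembly GRCm38.p6). The files give positions on an earlier build, so none of those are printed. A probe was kept if some group had all 3 arrays well above background, and the brightest stood for its gene. One model with a mean per group was fitted over 12 arrays (limma 3.58.1, R 4.3.3) with a variance trend, two-sided tests and Benjamini-Hochberg adjustment over 13283 genes, at 0.05. The steps were tested on simulated data. The number of arrays limits the precision.

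Arrays of equal replicate number were checked for pairing by correlating their residuals. For LPS in WT these were 0.105, 0.371 and 0.481, all above 0.1, so the WT arrays were also fitted as paired. WT PBS replicate 1 correlated best with WT LPS replicate 2, so the pairing is not established. For LPS in KO the correlations were 0.04, 0.113 and 0.081, each PBS array correlating best with the LPS array of its own number. For KO against WT they were between -0.102 and 0.017. Neither of these was taken as paired.

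Values on each array are given for the 5 largest called rises and falls of each comparison and the 5 smallest interaction p-values, and from each related list at most 3 called genes. A planned naming of the brightest and dimmest members was dropped, since probes of different genes do not give comparable levels. The alternatives were quantile and median scaling, normexp background correction, other filters, slide as a term and fits within each slide. No variance trend, a replicate block and leaving out each array were also tried. Normexp used the median spot signal, because the files carry no mean signal column. The blocks within 1 genotype were added after seeing the data. The members and lists were chosen with earlier results of these data known. Sequences are RefSeq's, and no genome was used here.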

Additional observations from a re-analysis of the deposited data

Results flagged for a closer look

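The response to LPS differed between genotypes in Mrpl30: the interaction, KO minus WT, was -0.59 on the log2 scale (adjusted p = 0.0017 in limma). All 3 WT arrays after LPS lay above all WT PBS arrays, and the KO LPS arrays lay within the range of the KO PBS arrays. Without KO PBS replicate 3, the KO PBS array on the slide of the KO LPS arrays, it was -0.66 (adjusted p = 8.2e-05), and with slide as a term -0.44 (adjusted p = 0.0063). Sex-linked genes and slide move with genotype, and their part in this difference was not tested beyond the slide term.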

How the results depend on the processing

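Under every alternative the counts of members called with LPS stayed between 45 and 62 in WT (51 as reported, 64.7% of all genes). In KO they stayed between 45 and 61 (50 as reported, 67.0% of all genes). Their medians moved: quantile normalization gave -0.03 in WT and -0.08 in KO, and the KO median was 0.10 both with slide as a term and within slide 2. For KO against WT in PBS (5 called) the count was 0 with median scaling, where the median was -0.03, 8 with normexp, 3 with no filter, 10 with the slide term, 2 with no variance trend, and 2 to 10 on leaving out 1 array. After LPS (21 called) it was 2 with the slide term, with a median of 0.03, and the median was -0.13 with median scaling. Mrpl18 (-0.05) and Mrps7 (0.00) turned sign there with the slide term, as did Mrpl12 and Mrpl46, whose values are given in the Results. For the interaction (1 called, 4.31% of all genes) the count was 2 with normexp (4.39%). It was 1 to 15 on leaving out 1 array, 15 being without KO PBS replicate 3 (21.1% of all genes). The median was -0.01 with quantile normalization. The cause of these shifts was not tested. With the replicate block over 12 arrays, 51 members were called with LPS in WT, 50 in KO, 5 between genotypes in PBS, 19 between them after LPS, and 1 for the interaction. The shares of all genes were then 64.7%, 67.5%, 14.6%, 39.3% and 4.34%. The block in WT arrays alone gave 55 (70.4% of all genes), and in KO arrays alone 49 (67.8%). The block moved no count by more than 1.5 times. With 3 arrays a group and no slide shared between the genotypes after LPS, their difference there rests on the scaling or on the slide term.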
